A study of Mus musculus with 4 samples.

Results

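The data described here are 200 probes of a mouse oligonucleotide array that gave bright signals both in sorted embryonic stem cells and in a reference pool of other cell lines. They were chosen from 42006 probes of 60 bases, of which they make up 0.476%. Probes whose spot was saturated in either channel on any array were dropped, probes with a mean log2 ratio of stem cells over reference between -1 and 1 were retained, and of these the 200 with the highest mean log2 stem-cell signal over the 4 arrays were taken. The signal levels and mean ratios given here therefore describe the choice itself and carry no test. The difference between the sorted fractions and the difference between days were not used in the choice. A probe that is high in 1 fraction can still pass through its mean over both.

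The cells were male 129/Sv embryonic stem cells of 1 line with a Zscan4cEmgfp reporter, which all samples share. The line was derived from a blasticidin-resistant colony after transfection with a linearized vector (pZscan4-Emerald), so every sample, the Emerald-negative ones included, carries the reporter vector, and the results concern that line. Cells were trypsinized and sorted by Emerald fluorescence into an Emerald-positive fraction, in which the Zscan4c reporter was on, and an Emerald-negative fraction, with 2 samples of each and no other treatment. Each sample was labelled with Cy3 and hybridised with Cy5-labelled RNA pooled in equal parts from cultured mouse cell lines of embryonic, immune, epithelial, muscle, liver, skin and testis origin. Per the descriptions, both samples with the same replicate number share a day; whether a day was a culture of its own is not stated, so the p-values may reflect technical spread alone. No gene name was paired with any probe, so the stem-cell identity and the reporter's own transcript were not checked against markers, and probes are given by identifier and sequence.

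A small fraction of genes supplies a large share of a cell's messenger RNA. In most proliferating mammalian cells these include the genes for ribosomal proteins, translation factors, glycolytic enzymes, cytoskeletal proteins and chaperones, whose products are needed whatever the cell type. Zscan4 is a zinc-finger gene family that embryonic stem cells switch on in bursts, in a small share of cells at a time; broadly used transcripts serve as the ground against which such a state is read. Many of the broadly used genes have processed pseudogenes or close copies, so that probes against different copies can bind the same RNA.

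The probe sequences below are shown because members with like ratios overlap in sequence, and because 1 probe differed most between the fractions. All are written 5′ to 3′ as the scanner tables give them. Capitals mark the stretch that aligned with the partner probe on the same strand. A pair from a group of 3 linked probes aligned over 46 bases at 93.5% identity:
Z00005005-1: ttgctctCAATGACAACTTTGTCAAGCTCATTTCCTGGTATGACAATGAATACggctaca
Z00033698-1: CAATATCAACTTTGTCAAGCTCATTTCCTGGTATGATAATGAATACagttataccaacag
A pair from the largest linked group shared 34 bases exactly:
Z00060565-1: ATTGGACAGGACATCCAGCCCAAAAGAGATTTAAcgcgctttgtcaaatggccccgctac
Z00060549-1: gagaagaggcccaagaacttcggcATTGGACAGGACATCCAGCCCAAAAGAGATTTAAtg
A pair that shared 59 of 60 bases, offset by 1 base, gave lower ratios on the second day in both fractions:
Z00060569-1: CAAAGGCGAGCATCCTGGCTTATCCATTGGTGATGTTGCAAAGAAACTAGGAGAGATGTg
Z00060587-1: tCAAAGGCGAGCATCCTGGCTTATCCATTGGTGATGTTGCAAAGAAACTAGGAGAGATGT
The probe with the largest difference between the fractions has no partner among the members and is written in lower case throughout:
Z00060989-1: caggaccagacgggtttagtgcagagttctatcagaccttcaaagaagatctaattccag

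In the stem cells the median processed Cy3 signal of the 200 probes was 71283 and 100437 in the Emerald-positive samples of replicates 1 and 2, and 66726 and 96767 in the Emerald-negative samples. The median over all probes was between 841 and 967 on these arrays, so the set stood 70.5-fold to 119-fold above it. The dimmest member on each array was still 503-fold to 738-fold brighter than the median of the 314 negative-control spots. Together the set took 9.16% to 10.3% of all summed Cy3 signal and 9.25% to 10.6% of all summed Cy5 signal. The higher medians of replicate 2 were in both channels: the median Cy5 signal was 71252 and 68340 on the arrays of replicate 1, and 100305 and 95166 on those of replicate 2. Brightness ranks here order spot signals, which also depend on how each probe binds and labels, and are not an order of transcript numbers.

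The set holds bright, readable probes within the ratio limits and does not hold all of the array's brightest probes. Of 265 probes saturated in a channel on any array, 215 had mean ratios within the same limits, and 214 of those were at or above the dimmest member in mean Cy3 signal. Of the 265, 252 were saturated in Cy5 and 85 in Cy3. Saturation can hold a reading down, so these ratios do not show a level similar to the pool. Of the 285 unsaturated probes at or above that level, 200 (70.2%) were the members, 81 lay above the upper ratio limit and 4 below the lower one. Over the whole array, 86.7% of the probes were unsaturated and within the ratio limits. A similar level in a pool does not show that each line in it holds the transcript.

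The mean log2 ratio of stem cells over reference had a median of 0.16 over the 200 probes, with quartiles of -0.22 and 0.54. It was above 0 for 118 members and below 0 for 82, whereas 48.5% of all probes were above 0. The members were ranked by the stem-cell signal, the numerator of this ratio, which favours ratios above 0. The lean is therefore not a result about abundant transcripts. On each of the 4 arrays the ratio was above 0 for 96 members and below 0 for 55, and the other 49 changed sign between arrays. Most members, 127 of 200, lay within 0.5 of an equal level. Across the arrays the members' median ratio was 0.10 and 0.17 in the Emerald-positive samples and 0.16 and 0.17 in the Emerald-negative samples, against medians of -0.016 to -0.012 over all probes.

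Of the 10 brightest members, 8 are described here. Z00030368-1, rank 3, gave Cy3 signals of 213378 and 290044 in the Emerald-positive samples and 129323 and 292250 in the Emerald-negative samples. Its log2 ratio to the reference was 0.98 and 0.88 in the Emerald-positive samples and 0.42 and 0.97 in the Emerald-negative samples, so that the Emerald-negative sample of replicate 1 stood low.

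The next 7 by brightness were Z00005972-1, Z00032380-1, Z00033663-1, Z00030960-1, Z00070867-1, Z00006424-1 and Z00011254-1. Their mean log2 ratios ran from 0.21 for Z00030960-1 to 0.91 for Z00006424-1. All 8 were thus above the pool, which the ranking by stem-cell signal favours. Their means stayed above 0 under each background correction and normalization tried, but their size depended on it: for Z00030960-1 the mean was 0.10 after loess, 0.06 with the lower normexp offset and 0.32 with no background correction. For Z00006424-1 the ratio was 0.98 and 0.84 in the Emerald-positive samples and 1.05 and 0.76 in the Emerald-negative samples, higher on the first day in both fractions. For Z00011254-1 it was 0.34 and 0.58, and 0.34 and 0.53, lower on the first day in both. After loess, the scale of the tests, the fraction differences of these 8 probes lay between -0.10 and 0.13 (log2), with adjusted p-values that round to 1.0 in limma.

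At the limit of the choice, the last members were Z00050588-1, Z00054216-1 and Z00060729-1, with mean log2 Cy3 signals of 15.83, 15.82 and 15.82. The first probes left out were Z00030697-1, Z00071966-1 and Z00058647-1, at 15.82, 15.82 and 15.81. At the upper ratio limit Z00000251-1, Z00025454-1 and Z00006300-1 stood just inside, at mean log2 ratios of 0.983, 0.981 and 0.980. Z00034084-1, Z00031249-1 and Z00004738-1 stood just outside, at 1.003, 1.013 and 1.013. The lower limit was less crowded: Z00010242-1, Z00061337-1 and Z00018525-1 were inside at -0.925, -0.863 and -0.795, and Z00034500-1, Z00060736-1 and Z00022690-1 outside at -1.064, -1.093 and -1.234. The rule was also applied with the ratio limits and ranking taken from each array alone, while probes saturated on any array stayed out. In this form the rule kept 181 and 173 of the members in the Emerald-positive samples and 170 and 173 in the Emerald-negative samples. It chose 140 members on all 4 arrays, and 2 on none, since their mean over arrays passed where no single array did.

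The spread of the ratios over the 4 arrays was small for most members. The SD of the log2 ratio had a median of 0.15, was under 0.25 for 161 of the 200 and exceeded 0.5 for 1, Z00060989-1, at 0.77. The steadiest member was Z00019667-1, rank 17, with log2 ratios of 0.20 and 0.18 in the Emerald-positive samples and 0.20 and 0.20 in the Emerald-negative samples. After loess normalization, the scale used for the tests, the same probe read 0.01 and 0.05 in the Emerald-positive and 0.21 and 0.10 in the Emerald-negative samples. For this probe the change of scale thus moved single ratios by more than its own spread over the arrays, which bears on the small differences below.

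The Cy5 channel held the same pool on all 4 arrays, and its spread served as a measure of array error in that channel. It does not cover the preparation and labelling of each stem-cell sample. A larger spread in Cy3 is therefore not by itself variation of the cells. With each channel quantile-normalized between arrays, the median SD of the members over the 4 arrays was 0.168 (log2) in Cy3 and 0.0598 in Cy5. The stem-cell channel varied more than the pool in 184 of 200 members (92%), compared with 66.6% of all probes, for which the medians were 0.264 and 0.222. The 200 brightest unsaturated probes above the upper ratio limit showed it too, in 174 (87%), with medians of 0.278 and 0.116. Saturated pixels can hold a spot's reading down: 21 members had some, all in Cy5, at most 26.7% of a spot's pixels, in 19, 11, 4 and 0 members on the Emerald-positive and Emerald-negative arrays of replicate 1 and then of replicate 2. Without those 21, the medians over 179 members were 0.179 and 0.0626, and Cy3 varied more in 164 (91.6%).

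Sorting by the reporter allows cells with Zscan4c activity to be compared with the rest in these transcripts. With limma, 0 of the 200 probes were higher and 0 lower in the Emerald-positive fraction at an adjusted p under 0.05, where 0.219% of all 42006 probes were called higher and 0.00952% lower. With so few calls on the whole array in this fit without the block, fewer than 1 call would stand in a set of this size at its background share. At an unadjusted p under 0.05, 20 members (10%) differed, 3 higher and 17 lower, against 7.23% of all probes. With the day as a block, again 0 were higher and 0 lower, against 0.736% and 0.117% of all probes (0.852% in either direction); 36 members (18%), 5 higher and 31 lower, had an unadjusted p under 0.05, against 12.6%. The lowest adjusted p of any member was 0.215, and 0.102 with the block.

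The intervals of the differences were taken on the loess scale and rest on a spread that may be technical alone. They do not bound a shift shared by the brightest probes. The 95% interval of the difference lay wholly within 2-fold in either direction for 190 members (95%), compared with 96.0% of all probes, and within 0.5 on the log2 scale for 124 (62%), compared with 76.5%. The median SE was 0.119, against 0.0959 over all probes. For the 10 members whose interval passed 2-fold, a difference of that size was not excluded by these 4 arrays; they include Z00060989-1, Z00004793-1, Z00058214-1, Z00005666-1 and Z00060639-1, described below. With the day as a block, 196 intervals (98%) lay within 2-fold, against 98.1% of all probes.

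The differences centred slightly below 0, with a median of -0.07 and a range from -0.57 to 1.15, against a median of -0.0093 over all probes. This median depends on scaling: it was 0.00959 with the scanner software's processed signals and 0.0264 with median centring in place of loess, so no direction is given for the set. With median centring it was 0.19 on the first day and -0.14 on the second, while with loess it was -0.11 and -0.05. Loess sets ratios to a common centre along brightness, so a shift shared by the brightest probes is largely taken out and was not measurable on that scale. A difference of at least 0.5 in size was seen in 3 members (1.5%), against 3.31% of all probes.

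Each day gives its own difference between the fractions. On both days 28 members were higher and 94 lower in the Emerald-positive sample, 61% in all, and 78 took opposite directions. The share with 1 direction on both days was 56.6% over all probes and 65.5% over the bright probes above the upper ratio limit, and no test of these shares was run. The split into higher and lower rests on the loess centre, since with median centring the members' medians had opposite signs on the days, as given above. The values of both Emerald-positive samples lay above both Emerald-negative ones for 9 members (4.5%; 14.6% of all probes) and below them for 48 (24%; 17.3%). Over the 200 probes the difference on the first day correlated with that on the second at r = 0.421, and over all probes at r = 0.65. These are correlations across probes, which share the arrays and are not independent replicates.

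The probe with the largest difference was Z00060989-1, rank 173 in brightness. Its Cy3 signal was 90656 and 121128 in the Emerald-positive samples and 40954 and 34832 in the Emerald-negative samples, while the pool gave 29777 and 41386, and 25752 and 34954, on the same arrays. Both Emerald-positive samples were far above both Emerald-negative ones, and the pool changed much less. This probe is a member only through its mean over both fractions. Its Emerald-negative signals were below the lowest member mean of 15.82 (log2), and its Emerald-positive ratios of these signals were above the upper ratio limit. Its choice thus depended on the fraction in which it was high, and it was not at a similar level to the pool there. The normalized log2 ratios were 1.48 and 1.47 in the Emerald-positive samples and 0.68 and -0.04 in the Emerald-negative samples. The difference was 1.15 ± 0.25 (SE, 2 against 2 samples; 95% interval 0.51 to 1.80), or 2.23-fold, and it was 0.81 on the first day and 1.50 on the second. It did not pass the test across all probes (limma adjusted p = 0.340, and 0.110 with the day as a block). On median-centred values with the day as a block, a combination chosen after seeing the data, it was the only member called, with a difference of 1.31 and an adjusted p of 0.0374, where 0.886% of all probes were called in either direction.

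A pair of probes outside the set overlap Z00060989-1 in sequence and gave differences of the same direction. Z00060943-1, which aligned over 41 bases at 95.1% identity, had log2 ratios of 1.49 and 1.40 in the Emerald-positive samples and 0.57 and -0.09 in the Emerald-negative samples. Its difference was 1.20 ± 0.23 (SE; limma adjusted p = 0.294, 0.0793 with the block). Z00060977-1, aligned over 33 bases at 93.9% identity and much dimmer, with a mean log2 Cy3 signal of 11.04, had a difference of 0.66 ± 0.15 (SE; adjusted p = 0.360, 0.0771 with the block). The 3 probes can bind overlapping RNA and are not independent measurements, and none passed the threshold in either fit.

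The next largest positive differences were smaller. Z00041944-1 had log2 ratios of 0.80 and 0.80 in the Emerald-positive samples and 0.44 and 0.18 in the Emerald-negative samples, with no overlap and a difference of 0.49 ± 0.11 (SE; limma adjusted p = 0.375). Z00071449-1, below the pool throughout, read -0.51 and -0.61 in the Emerald-positive samples and -0.97 and -0.88 in the Emerald-negative samples, a difference of 0.36 ± 0.09 (SE; adjusted p = 0.379). These groups did not overlap either. For Z00004793-1 the groups did overlap, at 0.53 and 0.23 against 0.24 and -0.37, with a difference of 0.45 (adjusted p = 0.889), although the Emerald-positive sample was the higher one on each day. Without the Emerald-negative sample of replicate 2 its difference was 0.14, without that of replicate 1 it was 0.75, and without the Emerald-positive sample of replicate 1 it was 0.30. For Z00058214-1 the difference of 0.38 (adjusted p = 0.984) rested on 1 array: the ratios were -0.02 and -0.73 in the Emerald-positive and -0.63 and -0.87 in the Emerald-negative samples, and without the Emerald-positive sample of replicate 1 the difference was 0.02. Without that of replicate 2 it was 0.73.

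On the negative side, Z00019209-1 was the most even across days and had the lowest adjusted p of the set. Its log2 ratios were -0.51 and -0.52 in the Emerald-positive samples and -0.05 and -0.06 in the Emerald-negative samples. The difference was -0.46 ± 0.07 (SE; limma adjusted p = 0.215, and 0.102 with the block), with -0.46 on the first day and -0.45 on the second. Its Cy3 signal was 85359 and 117619 in the Emerald-positive samples and 95821 and 148106 in the Emerald-negative samples, so the sorted fractions held nearly the pool's level in the negative cells and less in the positive ones, though past no threshold.

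Z00047627-1 had the largest negative difference, -0.57 ± 0.15 (SE; limma adjusted p = 0.454), with log2 ratios of -0.39 and -0.09 in the Emerald-positive samples and 0.47 and 0.19 in the Emerald-negative samples. The groups did not overlap, but the difference was -0.87 on the first day and -0.28 on the second. Z00059217-1 showed the same order of values, with -0.08 and 0.20 against 0.65 and 0.45 and a difference of -0.49 (adjusted p = 0.464). Z00031261-1 read -0.84 and -0.92 against -0.13 and -0.61, a difference of -0.51 (adjusted p = 0.618), which was -0.275 without the Emerald-negative sample of replicate 1. For Z00005666-1, which read 0.69 and -0.21 against 0.84 and 0.63, the difference of -0.49 (adjusted p = 0.960) rested on the low Emerald-positive sample of replicate 2 and was -0.05 without it. Without the Emerald-positive sample of replicate 1 it was -0.94.

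As a comparison, the 200 brightest unsaturated probes above the upper ratio limit, whose transcripts were more than 2-fold higher in the stem cells than in the pool, had a wider spread of differences between the fractions. The sets differ in brightness too, since 81 of these probes reach the level of the dimmest member and the others are dimmer. Their interquartile range of differences was 0.35, against 0.19 for the members and 0.14 over all probes. The members' spread was thus also wider than that of the whole array. Of the comparison probes, 149 (74.5%) had an interval within 2-fold, against 190 members (95%) and 96.0% of all probes. In the limma fit without the block 0 were called, with 32 (16%) at an unadjusted p under 0.05, against 7.23% of all probes. With the day as a block 11 were called higher, against 0.736% of all probes, and 0 lower, against 0.117%; of the members, 0 and 0 were called. No test of the difference between these sets was run.

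Between days, the members' differences had a wider spread than between fractions, as did those of all probes. The difference of replicate 2 over replicate 1, fitted beside the fraction, had an interquartile range of 0.317, against 0.192 for the fraction difference. Over all probes these ranges were 0.185 and 0.140. The day difference was larger in size than the fraction difference in 127 members (63.5%, against 57.4% of all probes). With limma 0 members were called at an adjusted p under 0.05, where 0% of all probes were called; 70 (35%) had an unadjusted p under 0.05, 28 higher and 42 lower on the second day, against 16.8% of all probes. The bright probes above the upper ratio limit had a wider day spread still, with an interquartile range of 0.424 and 95 (47.5%) at an unadjusted p under 0.05. The images were also read by the scanner software on separate days for the replicates, per the file headers, so cells, labelling and reading cannot be told apart. In the single channels, the median size of the day difference was 0.19 in Cy3 and 0.0549 in Cy5 over the members, smaller in both than over all probes, at 0.292 and 0.287.

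Z00060639-1 had the largest drop between days, with log2 ratios of -0.16 and 0.17 on the first day in the Emerald-positive and Emerald-negative samples, and -0.81 and -0.73 on the second. The fractions differed more on the first day than on the second, and both read lower on the second, by a difference of -0.77 ± 0.09 (SE; limma adjusted p = 0.120). Z00030727-1 went the other way, from -0.91 and -0.65 on the first day to -0.25 and -0.17 on the second, a difference of 0.57 (adjusted p = 0.123). Z00030761-1, rank 13, read 0.29 and 0.44 on the first day and 0.94 and 0.89 on the second, a difference of 0.55 (adjusted p = 0.123). None passed the threshold.

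Sequence overlap among the members was common. Probes were counted as linked when their same-strand alignment ran for 24 bases or longer with an identity of 80% or higher. By this count 65 members (32.5%) were linked to another probe of the array, against 6.50% of all probes and 29.5% of the bright probes above the upper ratio limit. Of the 65, 36 were linked to another member, in 15 groups, and 29 only to probes outside the set. Counting each group once, the 200 probes represent 179 distinct sequences, so that the counts above are not over 200 independent transcripts.

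Linked probes had close ratios. Over the 28 linked pairs the median gap in mean log2 ratio was 0.0812, against 0.484 over the 19872 other pairs of members. Their median gap in the fraction difference was 0.0241, against 0.149, and in the day difference 0.0758, against 0.231. In brightness they were hardly closer than the other pairs. The median gap in mean log2 Cy3 signal was 0.423, against 0.427, and the largest within a linked pair was 1.14. Pairs share probes and the same arrays, and these gaps are given as a description.

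The largest group held Z00060453-1, Z00060549-1, Z00060565-1, Z00060623-1 and Z00060729-1. Their mean log2 ratios lay between 0.41 and 0.74. Z00060565-1, in the sequences above, read 0.46 and 0.17 in the Emerald-positive samples and 0.47 and 0.17 in the Emerald-negative samples after normalization, so the fractions matched within each day while the second day was lower. The day difference was negative in all 5, from -0.42 to -0.16, and their fraction differences stayed between -0.005 and 0.09. In the group of 3 that holds Z00005005-1, Z00033698-1 and Z00058889-1, the mean log2 ratios were 0.83 to 0.98 and the fraction differences -0.25 to -0.21. Z00005005-1 read 0.54 and 0.70 in the Emerald-positive samples and 0.99 and 0.75 in the Emerald-negative samples (limma adjusted p = 0.833), and Z00033698-1 read 0.71 and 0.88 against 1.08 and 0.94 (adjusted p = 0.827). The order of the 4 samples was the same in both probes.

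The pair that shared 59 bases gave close readings on each array. Z00060569-1 read -0.21 and -0.67 in the Emerald-positive samples and -0.15 and -0.53 in the Emerald-negative samples. Z00060587-1 read -0.17 and -0.61, and -0.10 and -0.47, within 0.07 of its partner on every array. The day difference was -0.42 and -0.40 (limma adjusted p = 0.133 and 0.137), past no threshold, and both had a fraction difference of -0.10. Not all such pairs were this close. Z00031199-1 and Z00070528-1 aligned over 57 bases without a mismatch, and their day differences were 0.28 and 0.47. Their log2 ratios of processed signals were 0.18 and 0.41 in the Emerald-positive sample of replicate 2.

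In base composition the members resembled the rest of the array. Their GC content had a median of 45% with quartiles of 40% and 50%, against 43.3% with quartiles of 38.3% and 48.3% over all probes. The polyadenylation signal AATAAA, searched on each strand, was found on the probe strand in 19 members (9.5%), against 6.75% of all probes, and on the opposite strand in 4% against 3.42%. A reading frame without a stop codon through the whole probe was found on the probe strand in 88% of the members, against 83.2% of all probes; on the opposite strand the shares were 87.5% and 79.1%. These matches describe letters only and name no gene.

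Promoter windows from RefSeq (build GRCm38.p6), which run from 250 bases before to 50 after each of 32851 gene starts, placed few members. Alignments of 40 bases or longer with an identity of 80% or higher, on either strand, were found for 5 members (2.5%), against 2.51% of all probes. For Z00059830-1, 44 bases matched without a mismatch at chr2:25236738-25236781 on the minus strand, bases 7 to 50 after the annotated start of Rnf224, a RING finger gene. Z00059830-1 was rank 46 in brightness and below the pool, with log2 ratios of -0.35 and -0.33 in the Emerald-positive samples and -0.50 and -0.69 in the Emerald-negative samples. Its fraction difference after normalization was 0.15 ± 0.13 (SE; limma adjusted p rounds to 1.0). Z00060228-1, Z00031242-1 and Z00060331-1 each matched 1 window, at 82.5% to 86.2% identity, the last 2 on the opposite strand, which does not place them. Z00035239-1 matched 10 or more windows, as did 0.157% of all probes, and so has no single place among them.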

How the data were processed

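RNA of 4 sorted samples was measured on 4 arrays, each against the Cy5 reference pool. The deposited scanner tables give each spot's intensity in both channels (linear), and per the file headers also processed values, after background subtraction and dye normalization by the scanner software. Those headers name Feature Extraction 7.5.1 and the design text 9.5.1.1. The authors deposited a value table of log10 values; its deviations from the 4-array mean followed the ratio of sample over reference (r from 0.976 to 0.997 across probes), its column medians were 2.957, 2.954, 2.950 and 2.948, and its centring stays unknown.

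Members were chosen from processed intensities with each probe's spots averaged. For tests, mean signals were corrected with normexp (offset 50) and loess within arrays, with control and outlier spots at weight 0, and 403 outlier values were left out. The fractions were compared with limma 3.58.1 in R 4.3.3 (lmFit, eBayes), Benjamini-Hochberg adjustment across the 42006 probes and calls at 0.05. The fit was also run on simulated data with independent arrays, which lack the correlation between samples of 1 day. Replicate number entered as a block in an alternative: the descriptions give both samples of a number 1 day, and their deviations from the group means correlated at r = 0.475 over all probes. Sequence links were found with blastn 2.17.0. Alternatives were other background corrections and normalizations, the sample channel alone, the value table, a filter on dim probes, an intensity trend, each array left out and other member rules.

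The members, lists and tests were chosen with earlier results of these data known. The rule for naming probes took the 10 brightest members, the 5 largest differences in each direction, the 3 probes on each side of every limit, and any member past the threshold. Of these, 2 of the brightest members are not reported here. No table used here pairs probes with genes, so lists by gene function and cell type markers were not analysed.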

Additional observations from a re-analysis of the deposited data

How the results depend on the processing

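With the replicate block, 0 members were higher and 0 lower, and the median difference over the members stayed at -0.0746. Under the other alternatives the counts were also 0 and 0, except that 1 member, Z00060989-1, was higher with the block on median-centred values, a combination added after seeing the data. With 1 array left out in turn, the spread came from the group that still held 2 samples; the counts were 0 to 0 in both directions, which says nothing of stability since they could not fall, and the median lay between -0.0938 and -0.0634. The median changed sign to 0.00959 with processed signals, 0.0264 with median centring (with and without the block) and 0.00963 with the authors' value table, and the cause was not tested. The count of members that differed between days was 0 under its 7 alternatives. The 5 largest differences in each direction kept their direction under the 14 alternatives run for them. They were picked for their size on these same arrays, so a kept direction is no support for them. With 1 array left out, the difference shrank to 0.0228 for Z00058214-1 and to -0.045 for Z00005666-1. With 2 samples a group and few residual degrees of freedom, small differences were not detectable. The same dye held the sample on every array, so a probe's dye bias stays in its ratio to the pool. Lists by gene function could not be counted, and leaving out an array was not run for the day difference.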
